A study of Mus musculus with 18 samples.

Results

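Polycomb and trithorax genes encode the chromatin complexes that hold developmental genes silent or active as cells leave pluripotency. This account covers 40 of them, chosen by name for their roles in the complexes, out of 55385 genes in the deposited count table. All 40 names matched exactly 1 row, and all 40 were among the 16041 genes that had enough counts to be tested. They comprise 6 core and 5 accessory genes of Polycomb repressive complex 2 (PRC2), 8 RING and Pcgf genes, 7 canonical and 3 variant subunit genes of Polycomb repressive complex 1 (PRC1), 2 H3K27 demethylase genes, and 9 genes of the Kmt2 methyltransferases and their COMPASS partners.

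Polyadenylated RNA was sequenced from mouse gastruloids, which are aggregates of embryonic stem cells that elongate and form derivatives of the germ layers in culture. The cells were wild type and of strain 129/SVEV, no allele or transgene was named, and the gastruloids of a condition were pooled before extraction. The 6 groups of 3 libraries differed in age and in the window of a pulse of CHIR, which inhibits GSK3 and so switches on Wnt/β-catenin signalling. Early gastruloids received CHIR from 24 to 48 h after aggregation and were collected at 48, 72 and 96 h. Control gastruloids received it from 48 to 72 h and were collected at the same ages, so those of 48 h were untreated. The end of the pulse therefore fell at 48 h in early and at 72 h in control gastruloids. The series states the timing of the Wnt pulse as the variable under study.

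PRC2 places methyl groups on lysine 27 of histone H3 through either of a pair of catalytic subunits, Ezh1 or Ezh2. PRC1 attaches ubiquitin to histone H2A through Ring1 or Rnf2, together with a Pcgf partner that defines the kind of PRC1. Canonical PRC1 carries a Cbx subunit, which reads the PRC2 mark, and a Phc subunit, which polymerises and compacts chromatin, while variant PRC1 carries Rybp or Yaf2. Trithorax-type complexes oppose them by methylating lysine 4 of histone H3 through a Kmt2 enzyme on a shared COMPASS scaffold. In mouse embryonic stem cells Cbx7 and Phc1 are known as abundant subunits of canonical PRC1, and other Cbx genes take over during differentiation.

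Libraries held 14841728 to 24536538 counts, and each lay nearest to its own group over the 1000 most variable genes. Control replicate 3 stood apart from the other 2 control libraries at every age, where chi-square over its degrees of freedom was 15.4 to 28.1, against 1.41 to 7.90 for all other replicate pairs. The defining genes of pluripotent epiblast were present: the summed level of 5 of them was 3449 to 4044 CPM across the early libraries of 48 and 72 h, and 6012 to 6427 CPM in untreated controls. In gastruloids of 96 h it was 3243 to 3363 CPM in early and 590.4 to 864 CPM in control libraries. The 5 epiblast genes did not share the direction of their sum at 48 h. Early against control, 1 was higher and 2 lower there, with a median log2 fold change of 0.0554. At 72 h 3 were higher and 1 lower (median 1.2), and at 96 h 4 were higher and 0 lower (median 2.38). The summed level of 5 primitive streak and tailbud genes reached 654 to 838 CPM in early gastruloids of 96 h and 946 to 1286 CPM in controls of 96 h, against 7.77 to 8.78 CPM in untreated controls. Controls of 72 h, at the end of their pulse, held the highest such sum, 959.7 to 1541 CPM, with an epiblast sum of 2416 to 2825 CPM, and early gastruloids of 72 h had a streak sum of 68.1 to 71.4 CPM. The 5 streak and tailbud genes did not all move with their sum. Early against control at 96 h, 1 was higher and 2 lower, with a median log2 fold change of -0.338. From 72 to 96 h in controls, 2 rose and 3 fell. Extraembryonic endoderm genes (5) summed to 39.6 to 109 CPM in controls of 96 h and to 3.40 to 14.1 CPM in the other 5 groups. These genes did not move together: early against control at 96 h, 2 were higher and 2 lower, with a median log2 fold change of 0.2. Trophoblast genes (5) summed to at most 17.2 CPM and fibroblast genes (6) to at most 39.1 CPM in any library, both highest in controls of 96 h. In each group, 1 or 2 of the 6 fibroblast genes were at 0 in all 3 libraries. Fibroblast genes summed to 7.35 to 10.3 CPM in early gastruloids of 48 h and 23.9 to 28.6 CPM in untreated controls, and all 4 of those tested were lower in early gastruloids at 48 h. The part of these cell type markers in the results was not tested. Separate cultures are not stated for the 3 libraries of a group, so each p-value reflects their spread alone, and that spread may be technical.

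Levels below are in CPM, read counts divided by the scaled size of the library, and are compared within a gene. Levels of different genes are compared per transcript length, in FPKM. Calls were made at an adjusted p under 0.05 in edgeR's quasi-likelihood test with Benjamini-Hochberg adjustment over all 16041 genes. Changes are log2 fold changes ± SE, with 3 libraries per group throughout. In pooled tissue, fewer cells of a type and less RNA of a gene per cell cannot be told apart.

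Among the 40 genes, 39 differed somewhere between the 6 groups, where 89.5% of all tested genes did. The exception was Rnf2, the main RING ubiquitin ligase of PRC1 in stem cells (adjusted p = 0.0957). Early against control, 12 members were higher and 13 lower at 48 h, 17 higher and 6 lower at 72 h, and 17 higher and 11 lower at 96 h. Called in all were 62.5%, 57.5% and 70% of the members at 48, 72 and 96 h, against 43.7%, 44.9% and 59.1% of all tested genes. At 96 h 29.5% of all genes were higher and 29.6% lower. At least 2-fold differences were held by 1 member at 48 h, 2 at 72 h and 7 at 96 h, where 11.6%, 11.9% and 19.6% of all genes passed that limit. The median log2 fold change over the members was 0.0147 at 48 h, 0.0973 at 72 h and 0.0092 at 96 h, and over all genes 0.0168, -0.0211 and -0.00574. In absolute size the median was smaller over the members, at 0.236, 0.198 and 0.302, than over all genes, at 0.264, 0.256 and 0.356. The larger share of calls among the members is therefore not a sign of larger changes.

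Along the ages, falls outnumbered rises in each step of both arms. From 48 to 72 h, 6 members rose and 19 fell in early gastruloids, where 42.6% of all genes were called. In controls over the same day, which spans their pulse, 8 rose and 22 fell, and 61.4% of all genes were called. From 72 to 96 h, 4 rose and 13 fell in early gastruloids (35.3% of all genes called), and 11 rose and 14 fell in controls (54.9% called). Over all genes, calls were close to evenly split, with 20.7% of genes higher and 21.9% lower in the early step from 48 to 72 h, and 31.1% higher and 30.3% lower in the control step. The median over the members was -0.148 and -0.106 in the 2 early steps and -0.301 and -0.0136 in the 2 control steps, against -0.00263, 0.00793, 0.0125 and -0.0104 over all genes. At least 2-fold changes were held by 0 and then 1 member in the early steps and by 5 in each control step, where 8.60%, 7.18%, 20.7% and 16.7% of all genes passed. Libraries did not overlap between the arms for 30, 27 and 28 members at 48, 72 and 96 h, beside 56.1%, 57.4% and 61.2% of all genes. In the steps they did not overlap for 30 and 23 members in early gastruloids (60.0% and 53.0% of all genes) and 29 and 23 in controls (66.0% and 56%).

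The size of the split between rises and falls depended on the measure. Among the members, the direction with more calls was the same on both measures between the arms at 72 and 96 h and in the steps. At 48 h counts gave no clear direction, with 12 higher and 13 lower by edgeR and 13 and 12 by the DESeq2 test. On log2(FPKM + 1) with limma, the members split into 7 higher and 12 lower at 48 h, 16 and 6 at 72 h, and 17 and 8 at 96 h. In the steps they split into 7 higher and 11 lower and then 6 and 9 in early gastruloids, and 7 and 20 and then 9 and 13 in controls. Over all genes the share of calls that were higher moved by over 10 percentage points in 5 comparisons: 41.8% on FPKM against 52.7% on counts at 48 h, 37.8% against 48.3% at 72 h, 70.3% against 48.7% and 68.5% against 50% in the early steps, and 61.9% against 50.7% in the control step from 48 to 72 h. Without the 3 control libraries numbered 3, 27, 24 and 28 members were called between the arms at 48, 72 and 96 h. In the steps the counts were then 27 and 21 in early and 30 and 23 in control gastruloids.

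Proliferation genes moved with several of these comparisons. Of 12 replication licensing and mitosis genes, 0 were higher and 11 lower in controls of 72 h than of 48 h, and 1 was higher and 9 lower in early gastruloids of 72 h than of 48 h. Between the arms, 0 were higher and 5 lower in early gastruloids at 48 h, 7 higher and 1 lower at 72 h, and 6 higher and 0 lower at 96 h. Their summed level was 5747 to 5916, 5167 to 5300 and 4961 to 5106 CPM in early gastruloids of 48, 72 and 96 h, and 6169 to 6254, 4534 to 4763 and 4624 to 4766 CPM in controls. Their part in the changes of the Polycomb and trithorax genes was not tested.

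**Figure D1:**
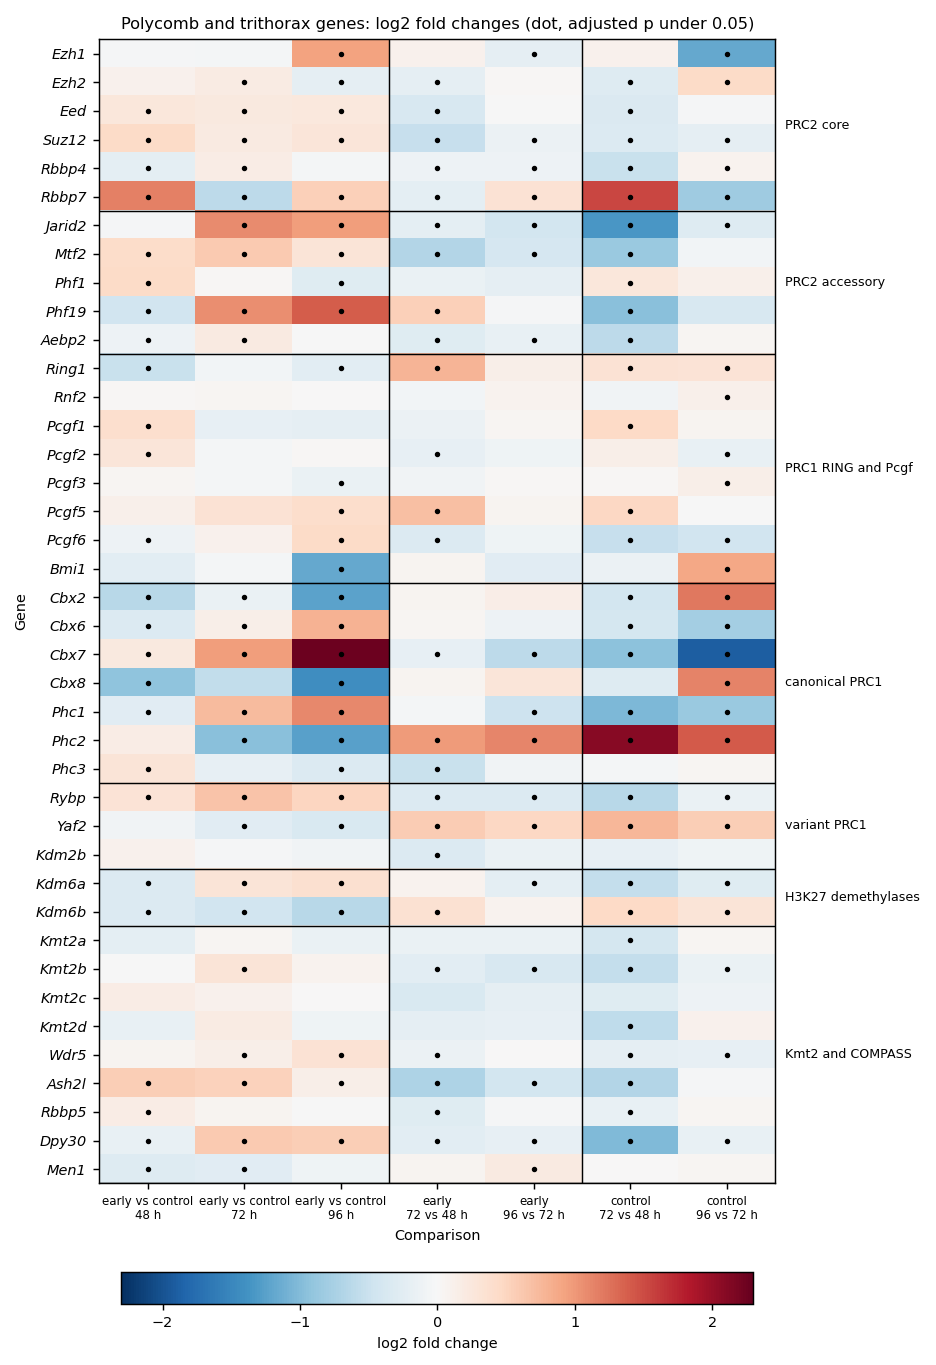
Log2 fold changes of the 40 members (rows, grouped by role) in 7 comparisons (columns), red for higher and blue for lower, with a dot where the adjusted p was under 0.05. The deepest colours lie in the canonical PRC1 rows, with Cbx7 at 2.26 in early against control gastruloids of 96 h and Phc2 at 2.10 in the control step from 48 to 72 h.

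In the PRC2 core, Ezh1 fell and Ezh2 rose in the last day of the controls. Of its 6 members, 3 were higher and 1 lower in early than in control gastruloids at 48 h, 4 higher and 1 lower at 72 h, and 4 higher and 1 lower at 96 h. The same split of 3, 4 and 4 higher and 1 lower was found on log2(FPKM + 1). Of all tested genes 43.7%, 44.9% and 59.1% were called on counts at 48, 72 and 96 h. Higher were 23.0%, 21.7% and 29.5% of all genes. Per length, Ezh2 was the more abundant enzyme in every library: it averaged 58.4 ± 1.89 FPKM in early and 67.4 ± 3.43 FPKM in control gastruloids of 96 h (SD, n = 3), where Ezh1 averaged 6.34 ± 0.356 and 3.24 ± 0.417 FPKM.

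Ezh1, the PRC2 methyltransferase associated with non-dividing cells (chr11:101191115-101226463, minus strand, mm10), was at 35.4, 35.5 and 38.5 CPM at 48 h, 40.8, 37.7 and 38.4 CPM at 72 h and 35.3, 33.6 and 31.9 CPM at 96 h in early gastruloids. In controls it was at 36.9, 34.9 and 40.1 CPM at 48 h, 40.8, 38.6 and 40.7 CPM at 72 h and 20.1, 16.9 and 15.8 CPM at 96 h. The 3 controls of 96 h lay below all 15 other libraries. Ezh1 was higher in early than in control gastruloids at 96 h, by 0.92 ± 0.08 (adjusted p = 1.75e-08), and was not called at 48 h (-0.031) or 72 h (-0.039). Between 72 and 96 h it fell in controls (-1.18 ± 0.08, adjusted p = 9.18e-10). In early gastruloids it also fell over that day (-0.21 ± 0.076, adjusted p = 0.036), a call lost on log2(FPKM + 1) (adjusted p = 0.172) and when single libraries were left out. The steps from 48 to 72 h were not called, at 0.10 in early and 0.10 in control gastruloids.

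Ezh2, the PRC2 methyltransferase of dividing cells (chr6:47530139-47595341, minus strand, mm10), ran the other way. In early gastruloids it was at 214, 219 and 214 CPM at 48 h, 188, 189.5 and 183 CPM at 72 h and 183, 189 and 198 CPM at 96 h. In controls it was at 204, 205 and 195 CPM at 48 h, 157, 164 and 169.7 CPM at 72 h and 213, 221 and 228 CPM at 96 h. At 96 h the arms did not overlap, and at 72 h they did not either, but with early above control. Early against control, Ezh2 was higher by 0.19 ± 0.041 at 72 h (adjusted p = 0.000913) and lower at 96 h (-0.21 ± 0.041, adjusted p = 0.00018), and it was not called at 48 h (0.10, adjusted p = 0.053). In controls it fell over the pulse day (-0.30 ± 0.041, adjusted p = 4.38e-06) and rose between 72 and 96 h (0.43 ± 0.041, adjusted p = 6.51e-08). In early gastruloids it fell from 48 to 72 h (-0.21 ± 0.041, adjusted p = 0.0005), which was not called on log2(FPKM + 1) (-0.085), and it was not called from 72 to 96 h (0.027). Ezh1 per Ezh2, in FPKM within a library, was 0.101 to 0.111, 0.120 to 0.134 and 0.0990 to 0.118 in early gastruloids and 0.106 to 0.126, 0.144 to 0.155 and 0.0407 to 0.0577 in controls, lowest in the controls of 96 h.

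Rbbp7, a histone-binding WD40 protein shared by PRC2 and other complexes (chrX:162760402-162779092, plus strand, mm10), had the largest single fold change of the core, over the controls' pulse day. It was at 716, 746 and 742 CPM at 48 h, 631, 627 and 622 CPM at 72 h and 747, 777 and 836 CPM at 96 h in early gastruloids, and at 323, 334 and 324 CPM at 48 h, 911, 959 and 990.04 CPM at 72 h and 573, 547 and 495 CPM at 96 h in controls. The untreated controls were the lowest group and the controls of 72 h, at the end of their pulse, the highest. Early against control, Rbbp7 was higher at 48 h (1.17 ± 0.051, adjusted p = 3.17e-12), lower at 72 h (-0.61 ± 0.051, adjusted p = 3.05e-08) and higher at 96 h (0.55 ± 0.051, adjusted p = 4.15e-08). It rose by 1.54 ± 0.052 over the controls' pulse day (adjusted p = 3.51e-14) and fell the day after (-0.82 ± 0.051, adjusted p = 2.61e-10). Its paralog Rbbp4 fell in the controls' pulse day (-0.51 ± 0.036, adjusted p = 9.66e-10), and Rbbp7 per Rbbp4 in FPKM was 2.37 to 2.51, 2.28 to 2.31 and 2.88 to 3.03 in early gastruloids against 0.840 to 0.888, 3.51 to 3.88 and 1.903 to 2.02 in controls. From CPM per kilobase the ratio was above 1 in untreated controls as well, at 1.25 to 1.32. Exons of the neighbouring gene Txlng overlap 5.98% of the Rbbp7 exons on the other strand, and its counts came to 9.66% of those of Rbbp7.

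Eed, which binds the methylated histone, and Suz12, the scaffold, were both higher in early than in control gastruloids at each age. Suz12 stood at 318 to 323, 219 to 227 and 197 to 208 CPM in early and 227 to 256, 191 to 194 and 149 to 176 CPM in control gastruloids of 48, 72 and 96 h, and the arms did not overlap at any age. Its differences were 0.43, 0.21 and 0.28, and those of Eed were 0.26, 0.23 and 0.24. Both fell from 48 to 72 h, Suz12 by 0.53 and Eed by 0.37 in early gastruloids, and Suz12 by 0.31 and Eed by 0.34 in controls. From 72 to 96 h Suz12 fell in controls by 0.21 with all libraries and by 0.14 without control replicate 3 of 96 h.

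**Figure D2:**
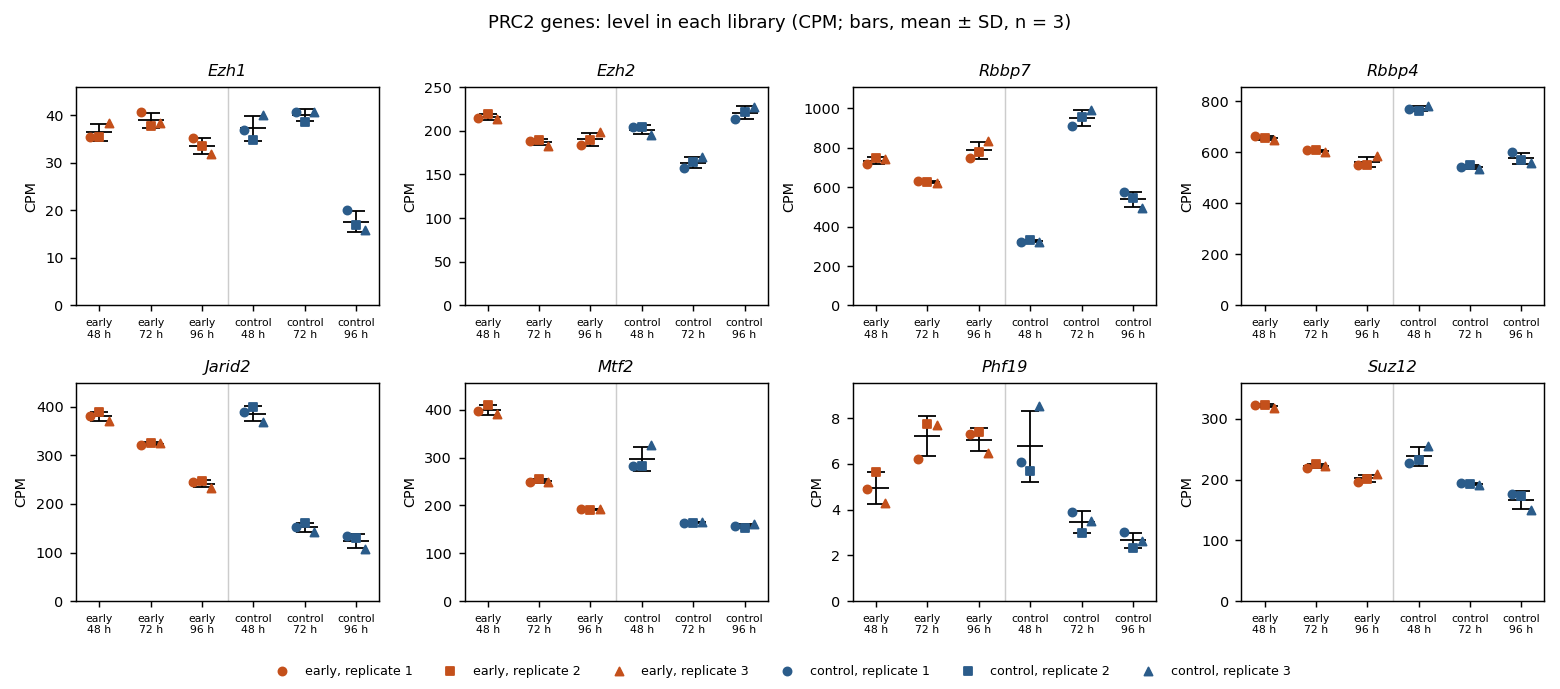
Levels of 8 PRC2 genes in every library (CPM, vertical axis from 0; points, libraries; bars, mean ± SD, n = 3), with early groups left and control groups right of the grey line. Ezh1 is lowest in controls of 96 h, at 15.8 to 20.1 CPM, and Rbbp7 in untreated controls, at 323 to 334 CPM.

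Accessory subunits that bring PRC2 to chromatin were mostly higher in early gastruloids of 72 and 96 h. Of 5 accessory members, 4 were higher and 0 lower in early gastruloids at 72 h, and 3 were higher and 1 lower at 96 h, against 2 and 2 at 48 h. The median log2 fold change of the 5 was 0.61 at 72 h on counts and 0.466 on log2(FPKM + 1), beside -0.0211 over all genes on counts. In the controls' pulse day 4 of the 5 fell and 1 rose, the exception being Phf1, whose calls are uncertain for the reason given below. Of all tested genes 43.7%, 44.9% and 59.1% were called between the arms at 48, 72 and 96 h. Higher were 23.0%, 21.7% and 29.5% of them. In the controls' pulse day 31.1% of all genes rose and 30.3% fell.

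Jarid2, a PRC2 cofactor that binds nucleosomes (chr13:44729474-44921643, plus strand, mm10), was at 381, 389 and 371 CPM at 48 h, 320.4, 326 and 325 CPM at 72 h and 246, 247 and 233 CPM at 96 h in early gastruloids. In controls it was at 389, 400.02 and 369 CPM at 48 h, 153, 162 and 143 CPM at 72 h and 134, 129 and 108 CPM at 96 h. The arms overlapped at 48 h and were apart at 72 and 96 h. Jarid2 was higher in early gastruloids by 1.09 ± 0.063 at 72 h (adjusted p = 2.6e-10) and 0.96 ± 0.063 at 96 h (adjusted p = 4.01e-10). It fell over the controls' pulse day (-1.34 ± 0.063, adjusted p = 3.19e-12), and also in each early step, at -0.23 and -0.42.

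Mtf2, Phf1 and Phf19 are the Polycomb-like proteins, which bind unmethylated CpG-rich DNA. Mtf2 was the most abundant of them per length, with 44.8 ± 0.836 FPKM in early and 29.98 ± 2.79 FPKM in control gastruloids of 72 h, where Phf19 had 1.45 ± 0.178 and 0.777 ± 0.128 FPKM. Mtf2 was higher in early gastruloids at every age, by 0.43 ± 0.046, 0.61 ± 0.046 and 0.29 ± 0.046, and fell by 0.85 in the controls' pulse day. Phf19 was at 4.88, 5.65 and 4.29 CPM at 48 h, 6.201, 7.74 and 7.69 CPM at 72 h and 7.29, 7.39 and 6.47 CPM at 96 h in early gastruloids, and at 6.06, 5.69 and 8.53 CPM at 48 h, 3.89, 2.97 and 3.51 CPM at 72 h and 3.01, 2.33 and 2.62 CPM at 96 h in controls. It was the only PRC2 member that rose in early gastruloids from 48 to 72 h (0.55 ± 0.16, adjusted p = 0.0107), while it fell in controls (-0.96 ± 0.17, adjusted p = 8.76e-05). Early against control it was higher at 72 h (1.06 ± 0.17, adjusted p = 5.73e-05) and 96 h (1.40 ± 0.17, adjusted p = 1.54e-06). It was lower at 48 h (-0.44 ± 0.16, adjusted p = 0.035), a call lost without control replicate 3 of 48 h (-0.25, adjusted p = 0.219). The calls of Phf1 are uncertain: exons of Cuta on the other strand cover 39.3% of its exons, Cuta had 277% of its counts, and none of its 3 calls held on log2(FPKM + 1). Aebp2, a DNA-binding cofactor, fell in the controls' pulse day (-0.61) and was higher in early gastruloids at 72 h (0.20).

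RING and Pcgf genes encode the catalytic core of PRC1. Early against control, 2 of the 8 were higher and 2 lower at 48 h, and 2 higher and 3 lower at 96 h. At 72 h 0 were called by edgeR, with 1 (Pcgf6) at an unadjusted p under 0.05, and 1 was called by DESeq2, again Pcgf6. From 72 to 96 h in early gastruloids 0 were called by edgeR or DESeq2, with Pcgf6 and Bmi1 at an unadjusted p under 0.05. Of all tested genes edgeR called 35.3% in that step, and 43.7%, 44.9% and 59.1% between the arms at 48, 72 and 96 h. Rnf2 lay between 111 and 131 CPM in all 18 libraries. Ring1, the less abundant ligase, was lower in early gastruloids at 48 h (-0.51 ± 0.093, adjusted p = 0.000239) and rose from 48 to 72 h in both arms, by 0.78 in early and 0.33 in control gastruloids. The difference in Ring1 at 96 h (-0.24, adjusted p = 0.022) was lost without control replicate 3 of 96 h (-0.12, adjusted p = 0.173). Its rise in controls from 72 to 96 h, 0.31 with all libraries, was 0.21 without that library.

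The Pcgf family divides PRC1 into canonical complexes, with Pcgf2 or Bmi1, and variant ones. Bmi1, also called Pcgf4 (chr2:18677018-18686629, plus strand, mm10), was at 14.3, 13.7 and 15.6 CPM at 48 h, 14.5, 15.6 and 15.6 CPM at 72 h and 13.9, 12.9 and 11.6 CPM at 96 h in early gastruloids, and at 17.98, 15.98 and 17.7 CPM at 48 h, 15.5, 16.6 and 14.8 CPM at 72 h and 30.3, 33.3 and 22.8 CPM at 96 h in controls. All 3 controls of 96 h lay above the 15 other libraries. Bmi1 was lower in early than in control gastruloids at 96 h (-1.17 ± 0.11, adjusted p = 6.5e-08) and was not called at 48 h (-0.24, adjusted p = 0.1) or 72 h (-0.037, adjusted p = 0.818). It rose in controls from 72 to 96 h (0.88 ± 0.11, adjusted p = 2.29e-06). Its other steps were not called, at 0.065 and -0.25 in early gastruloids and -0.14 in controls.

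Pcgf2 was the more abundant partner of canonical PRC1 in every group, at 31.5 ± 1.93 FPKM in early and 27.8 ± 2.27 FPKM in control gastruloids of 96 h, where Bmi1 had 3.39 ± 0.367 and 7.38 ± 1.46 FPKM. Its level was 113, 102 and 114 CPM at 48 h, 98.8, 92.3 and 98.1 CPM at 72 h and 85.4, 88.6 and 95.9 CPM at 96 h in early gastruloids, and 91.9, 91.5 and 88.2 CPM at 48 h, 91.6, 101 and 105 CPM at 72 h and 89.7, 84.4 and 90.7 CPM at 96 h in controls. These levels lay within a narrow band. Pcgf2 was higher in early gastruloids at 48 h (0.28 ± 0.058, adjusted p = 0.000805), which was not called on log2(FPKM + 1) (0.14, adjusted p = 0.269), and was not called at 72 h (-0.044) or 96 h (0.027). In the steps it fell in early gastruloids from 48 to 72 h (-0.19 ± 0.058, adjusted p = 0.0145) and in controls from 72 to 96 h (-0.17 ± 0.059, adjusted p = 0.0195). Both calls were lost when single libraries were left out. Its other steps were not called, at -0.10 in early and 0.13 in control gastruloids. Bmi1 per Pcgf2, in FPKM, was 0.0916 to 0.127 in early and 0.198 to 0.335 in control gastruloids of 96 h.

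Of the Pcgf genes of variant PRC1, Pcgf6, a partner in the E2f6 and Mga complex that silences germline genes, held a large share of the family's summed FPKM. That share was 40.9% ± 2.09, 36.8% ± 1.84 and 35.2% ± 0.704 in early gastruloids of 48, 72 and 96 h, and 45.1% ± 0.941, 33.98% ± 1.32 and 27.97% ± 0.776 in controls (SD, n = 3). It rests on the length used: from CPM per kilobase of all annotated exons, Pcgf6 held 31.1% in early gastruloids of 48 h and 35.9% in untreated controls, where Pcgf2 held 39.6% and 34.9%. Pcgf6 fell in controls over the pulse day (-0.53 ± 0.044, adjusted p = 6.79e-09) and the day after (-0.44 ± 0.045, adjusted p = 1.83e-07), and in early gastruloids from 48 to 72 h (-0.31 ± 0.044, adjusted p = 1.79e-05). It was higher in early gastruloids at 96 h (0.45 ± 0.045, adjusted p = 1.09e-07), with libraries at 88.2 to 99.2 CPM against 66.1 to 69.7 CPM. Pcgf5 rose in both arms from 48 to 72 h, by 0.69 ± 0.17 in early and 0.48 ± 0.17 in control gastruloids, and the control step was not called on log2(FPKM + 1) (adjusted p = 0.357). Its difference at 96 h was 0.41 with all libraries and 0.67 without control replicate 3 of 96 h, and was not called without replicate 1 or 2 of those controls (0.30 and 0.29). Pcgf1, the partner of Kdm2b, was higher in early gastruloids at 48 h (0.39) and rose in the controls' pulse day (0.46). Pcgf3 was lower in early gastruloids at 96 h (-0.16, not called without control replicate 1 of 96 h) and rose by 0.14 in controls from 72 to 96 h.

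Canonical PRC1 included the largest differences between the arms among the 40 genes. At 96 h all 7 Cbx and Phc members were called between the arms: Cbx6, Cbx7 and Phc1 were higher, and Cbx2, Cbx8, Phc2 and Phc3 lower, in early than in control gastruloids. The same 3 were higher without the 3 control libraries numbered 3, with 4 again lower. On log2(FPKM + 1) 6 of the 7 were measured, with 3 higher and 3 lower. Of all tested genes 59.1% were called between the arms at 96 h on counts, 29.5% higher and 29.6% lower. In controls, Cbx7 and Phc1 fell in both steps while Phc2 rose in both.

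Cbx7, the chromodomain subunit known for stem cells (chr15:79915807-79971119, minus strand, mm10), was at 396, 368 and 381 CPM at 48 h, 343, 316 and 345 CPM at 72 h and 228, 203 and 229 CPM at 96 h in early gastruloids. In controls it was at 337, 329 and 319 CPM at 48 h, 178, 166 and 169 CPM at 72 h and 51.9, 44.3 and 40.8 CPM at 96 h. The arms did not overlap at any age, and all 3 early libraries of 96 h lay above the controls of 72 h. Early against control, Cbx7 was higher by 0.22 ± 0.065 at 48 h (adjusted p = 0.0108), 0.97 ± 0.066 at 72 h (adjusted p = 2.24e-09) and 2.26 ± 0.071 at 96 h (adjusted p = 3.57e-14). It fell in controls over the pulse day (-0.94 ± 0.066, adjusted p = 7.82e-10) and the day after (-1.90 ± 0.071, adjusted p = 3.63e-13). In early gastruloids it fell from 48 to 72 h (-0.19 ± 0.064, adjusted p = 0.024) and from 72 to 96 h (-0.61 ± 0.065, adjusted p = 1.78e-06). The 48 h difference and the first early step were not called on log2(FPKM + 1) (0.12 and -0.041) and lost their calls without early replicate 1 of 48 h. Exons of Apobec3 on the other strand overlap 1.54% of its exons.

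Cbx2, a chromodomain subunit able to compact chromatin (chr11:119022962-119031270, plus strand, mm10), moved the opposite way to Cbx7 in the last day of the controls. It was at 55.8, 52.6 and 58.01 CPM at 48 h, 56.6, 57.2 and 59.4 CPM at 72 h and 64.9, 63.9 and 62.5 CPM at 96 h in early gastruloids, and at 85.3, 88.1 and 85.97 CPM at 48 h, 61.2, 59.6 and 71.9 CPM at 72 h and 147, 154 and 148 CPM at 96 h in controls. Controls of 96 h were the highest group by a wide gap. Early against control, Cbx2 was lower at 48 h (-0.64 ± 0.058, adjusted p = 6.31e-08) and at 96 h (-1.23 ± 0.057, adjusted p = 4.28e-12). The call at 72 h (-0.15 ± 0.059, adjusted p = 0.042) was lost without control replicate 3 of 72 h (-0.066, adjusted p = 0.303). In controls it fell over the pulse day (-0.43 ± 0.058, adjusted p = 3.82e-06) and rose the day after (1.22 ± 0.058, adjusted p = 7.7e-12). Neither early step was called, at 0.056 (adjusted p = 0.471) and 0.14 (adjusted p = 0.0633).

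Cbx6 followed the direction of Cbx7 at 96 h, with 138, 145 and 140.4 CPM in early and 78.8, 78.2 and 85.4 CPM in control gastruloids (0.81 ± 0.055, adjusted p = 7.42e-10). At 48 h it was lower in early gastruloids (-0.32). Its call at 72 h (0.14, adjusted p = 0.0471) was lost without control replicate 3 of 72 h (0.10, adjusted p = 0.183), and was 0.22 without replicate 1. Cbx8 was barely detected, at 0.829, 0.663 and 0.809 CPM in early and 2.398, 2.01 and 1.68 CPM in control gastruloids of 96 h. It was lower in early gastruloids at 96 h (-1.42 ± 0.28, adjusted p = 0.000305) and rose in controls from 72 to 96 h (1.15 ± 0.28, adjusted p = 0.00189). Its call at 48 h (-0.92, adjusted p = 0.0283) was lost without control replicate 3 of 48 h (adjusted p = 0.0763) and moved to -1.55 without early replicate 1.

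Phc1, a polyhomeotic subunit abundant in stem cells (chr6:122317731-122340561, minus strand, mm10), was at 841, 820.04 and 793 CPM at 48 h, 787, 771 and 808 CPM at 72 h and 602, 557 and 553 CPM at 96 h in early gastruloids. In controls it was at 977, 980.5 and 989 CPM at 48 h, 458, 442 and 538 CPM at 72 h and 294, 280.02 and 220.5 CPM at 96 h. Early libraries lay below controls at 48 h and above them at 72 and 96 h, without overlap at any age. Early against control, Phc1 was lower at 48 h (-0.26 ± 0.08, adjusted p = 0.0127) and higher at 72 h (0.72 ± 0.081, adjusted p = 1.2e-06) and 96 h (1.10 ± 0.082, adjusted p = 2.27e-09). It fell in controls over the pulse day (-1.04 ± 0.082, adjusted p = 3.8e-09) and the day after (-0.85 ± 0.082, adjusted p = 8.34e-08). In early gastruloids the step from 48 to 72 h was not called (-0.052 ± 0.08, adjusted p = 0.633), and it fell from 72 to 96 h (-0.47 ± 0.081, adjusted p = 0.000231).

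Phc2, its paralog (chr4:128654702-128752881, plus strand, mm10), was at 18.9, 16.3 and 18.5 CPM at 48 h, 36.2, 34.02 and 35.5 CPM at 72 h and 79.5, 74.4 and 76.3 CPM at 96 h in early gastruloids, and at 15.7, 14.4 and 18.01 CPM at 48 h, 63.6, 67.6 and 74.8 CPM at 72 h and 210.5, 207 and 131 CPM at 96 h in controls. Each later age lay above the earlier one in both arms, and early libraries of 72 and 96 h lay below controls of their age. Phc2 was not called at 48 h (0.17 ± 0.16, adjusted p = 0.409) and was lower in early gastruloids at 72 h (-0.96 ± 0.13, adjusted p = 1.14e-05) and 96 h (-1.25 ± 0.12, adjusted p = 9.73e-08). It rose in early gastruloids by 0.97 ± 0.14 (adjusted p = 3.65e-05) and then 1.12 ± 0.13 (adjusted p = 4.36e-06). In controls it rose by 2.10 ± 0.14 (adjusted p = 5.22e-10) and then 1.42 ± 0.13 (adjusted p = 2.86e-08). Control replicate 3 of 96 h held the lowest level of its group, and the difference at 96 h without it was -1.43. Phc3 was higher in early gastruloids at 48 h (0.29) and lower at 96 h (-0.31).

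**Figure D3:**
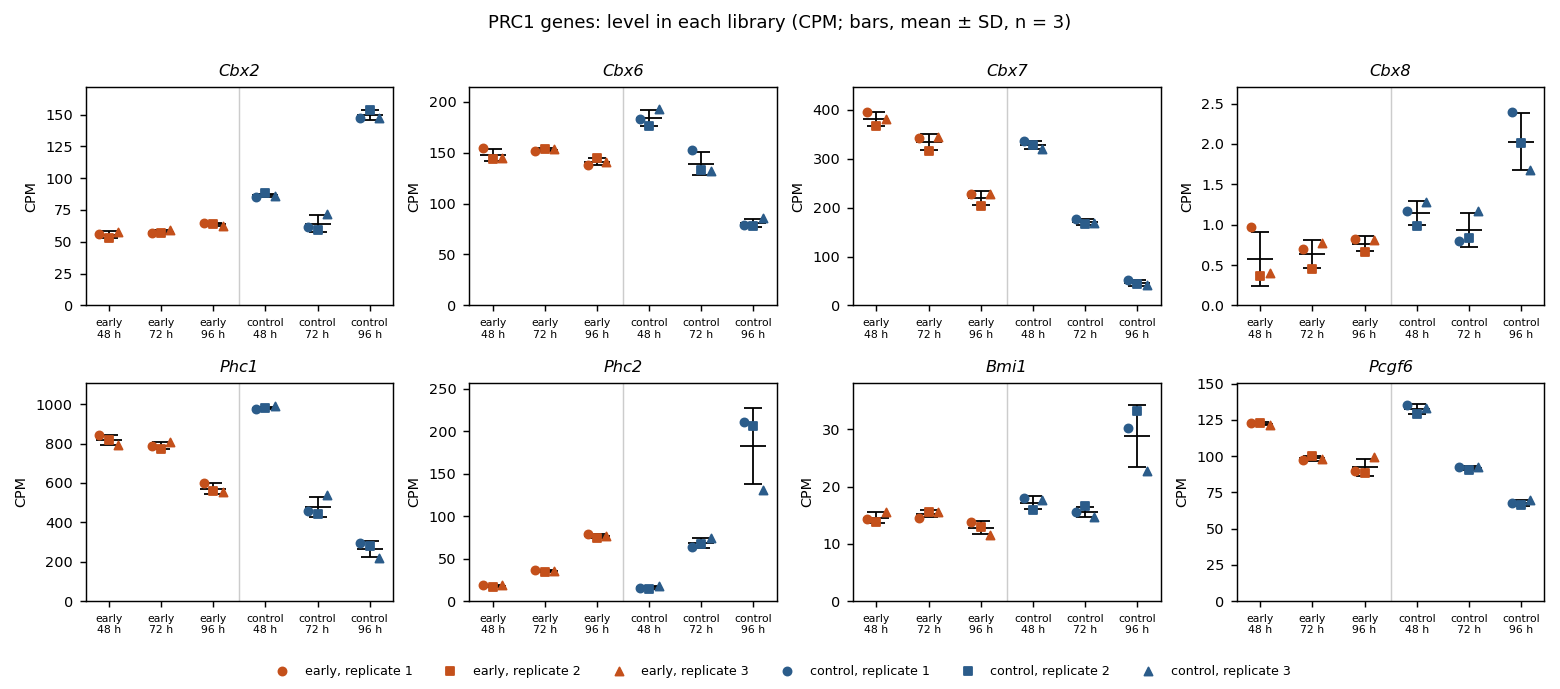
Levels of 8 PRC1 genes in every library (CPM, vertical axis from 0; points, libraries; bars, mean ± SD, n = 3), early groups left and control groups right of the grey line. Controls of 96 h stand apart for Cbx2, at 147 to 154 CPM, for Cbx7, at 40.8 to 51.9 CPM, and for Phc2, at 131 to 210.5 CPM.

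Set against each other per length, Cbx2 overtook Cbx7 in the controls of 96 h, and Phc2 drew level with Phc1 there. In early gastruloids of 96 h Cbx7 and Phc1 remained the larger of each pair. Cbx7 held 70.96% ± 0.138, 68.2% ± 2.23 and 58.1% ± 4.08 of the summed FPKM of the 4 Cbx members in early gastruloids of 48, 72 and 96 h, and 61.5% ± 0.576, 51.1% ± 1.06 and 19.5% ± 2.07 in controls (SD, n = 3). Cbx2 held 15.7% ± 0.426 in early and 56.9% ± 2.11 in control gastruloids of 96 h. In those libraries Cbx2 per Cbx7 was 0.248 to 0.294 in early and 2.498 to 3.22 in control gastruloids, so Cbx2 exceeded Cbx7 in all 3 controls of 96 h and in 0 of the other 15 libraries. Phc1 per Phc2 was 26.8 to 33.6, 13.6 to 14.5 and 4.66 to 4.76 in early gastruloids, and 33.6 to 42.7, 4.17 to 4.52 and 0.869 to 1.17 in controls. These ratios are descriptions without a test. Their size rests on the length used: from CPM per kilobase of all annotated exons, Cbx2 per Cbx7 was 0.417 to 0.480 in early and 4.32 to 5.51 in control gastruloids of 96 h, and Phc1 per Phc2 was 9.66 to 10.1 and 1.81 to 2.24, above 1 in every library.

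**Figure D4:**
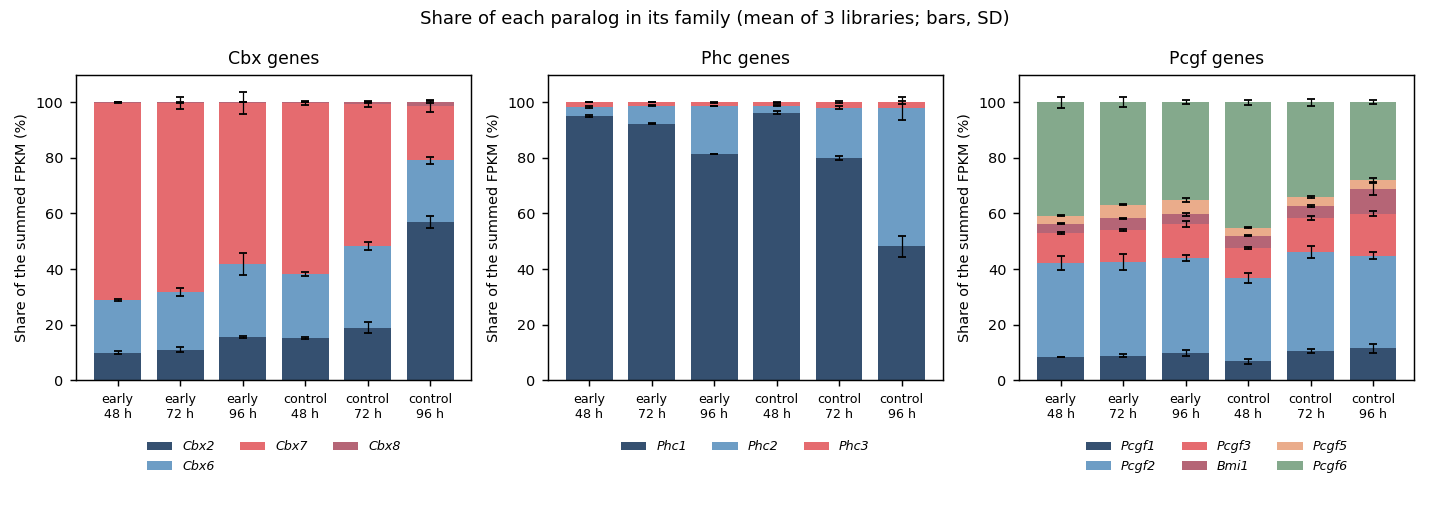
Share of each paralog in the summed FPKM of its family (stacked bars, mean of 3 libraries; error bars, SD of the segment they end on), for the Cbx, Phc and Pcgf members in the 6 groups, early left and control right. Cbx7 holds 58.1% ± 4.08 in early and 19.5% ± 2.07 in control gastruloids of 96 h, and Phc1 holds 81.4% ± 0.127 and 48.1% ± 3.74.

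The promoters of Phc1, Cbx7 and Phc2 are printed because Phc1 and Cbx7 held the largest shares of their families in untreated controls, and Phc2 is the paralog that rose in both control steps. Each is the 250 bases before an annotated RefSeq start on build GRCm38.p6, read 5′ to 3′ on the gene's strand, with every CG in capitals. For Phc2, 3 RefSeq starts are listed, and the first, at the start of the deposited locus, is shown.
Phc1, chr6:122340228-122340477, minus strand: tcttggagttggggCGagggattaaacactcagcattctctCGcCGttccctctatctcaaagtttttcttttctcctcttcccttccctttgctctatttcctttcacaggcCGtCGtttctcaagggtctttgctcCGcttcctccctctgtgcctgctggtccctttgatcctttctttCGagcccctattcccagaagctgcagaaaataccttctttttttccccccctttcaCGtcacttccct
Cbx7, chr15:79932647-79932896, minus strand: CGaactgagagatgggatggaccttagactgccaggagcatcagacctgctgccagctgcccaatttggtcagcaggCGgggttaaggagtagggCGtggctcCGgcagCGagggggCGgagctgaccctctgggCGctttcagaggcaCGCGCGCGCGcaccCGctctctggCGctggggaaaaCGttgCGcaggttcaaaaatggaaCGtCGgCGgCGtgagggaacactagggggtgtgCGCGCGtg
Phc2, chr4:128654452-128654701, plus strand: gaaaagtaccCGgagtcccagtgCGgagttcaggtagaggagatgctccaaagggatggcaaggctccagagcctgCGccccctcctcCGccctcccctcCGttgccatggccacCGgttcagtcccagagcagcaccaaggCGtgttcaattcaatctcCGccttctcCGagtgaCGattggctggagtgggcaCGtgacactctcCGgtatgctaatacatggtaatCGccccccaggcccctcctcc
Phc1 had 8 CG in this window, Cbx7 23 and this Phc2 start 13. The other Phc2 starts had 1 and 34. Promoters were listed for 33 of the 40 members, 49 in all, with a median of 21 CG, beside a median of 6 over 32817 promoters of all genes. At least 10 CG stood in 39 of the 49 and in 37.8% of all promoters. CG content was chosen as the feature to show after 12 short motifs had been searched in the same windows, on both strands, and after the sequences had been seen. Of those motifs, GGGCGGGG was in 18 of 49 member promoters and 16.1% of all, CACGTG in 8 and 6.02%, AGGTCA in 6 and 14%, CAGGTG in 5 and 17.2%, and CTTTGTT in 3 and 5.03%. CTTTGAT was in 2 member promoters and 3.21% of all, TTTCCCGC in 2 and 0.893%, and ATTTGCAT in 1 and 1.60%. The palindromic NRF1 motif was in 1 and 0.777%. TTTGGCGC, CCATTGT and CCGGAAGT were in 0 member promoters and in 0.417%, 3.02% and 2.88% of all. These matches are descriptions of letters and bear on no factor.

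Rybp and Yaf2, the alternative subunits that define variant PRC1, moved in opposite directions. Rybp stood at 125 to 138, 100 to 112 and 83.9 to 85.04 CPM in early gastruloids and 99.2 to 108, 61.3 to 71.8 and 58.2 to 61.5 CPM in controls, and Yaf2 at 12.4 to 14.5, 19.99 to 20.4 and 26.9 to 29.3 CPM and 14.04 to 14.7, 23.7 to 25.1 and 34.8 to 37.2 CPM. With age Rybp fell and Yaf2 rose in every step of both arms. Early against control, Rybp was higher at 48 h (0.32), 72 h (0.65 ± 0.058, adjusted p = 6.85e-08) and 96 h (0.49 ± 0.059, adjusted p = 1.13e-06). Yaf2 was lower at 72 h (-0.26 ± 0.064, adjusted p = 0.00269) and 96 h (-0.36 ± 0.062, adjusted p = 7.71e-05) and was not called at 48 h (-0.077). Rybp per Yaf2 in FPKM was 3.45 to 3.99, 1.91 to 2.12 and 1.11 to 1.203 in early and 2.81 to 3.01, 1.02 to 1.203 and 0.596 to 0.706 in control gastruloids. The last control step of Rybp (-0.15, adjusted p = 0.0355) was lost with DESeq2 size factors (adjusted p = 0.0524) and without single libraries. Kdm2b, which brings variant PRC1 to CpG islands, fell in early gastruloids from 48 to 72 h (-0.32 ± 0.093, adjusted p = 0.0106) and was called in no other pairwise comparison. Exons of Rnf34 on the other strand overlap 5.77% of its exons.

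The H3K27 demethylases, which remove the PRC2 mark, moved in opposite directions in the controls. Kdm6a fell and Kdm6b rose over the controls' pulse day (-0.55 ± 0.061 and 0.46 ± 0.12). From 72 to 96 h Kdm6a fell again (-0.29) and Kdm6b rose (0.30), a call lost on log2(FPKM + 1) and without single libraries, and at 0.47 without the 3 control libraries numbered 3. Kdm6b was at 103, 111 and 72.8 CPM in early and 163, 152 and 133 CPM in control gastruloids of 96 h, without overlap, and was lower in early gastruloids at each age (-0.32, -0.43 and -0.64). Kdm6a was lower in early gastruloids at 48 h (-0.32) and higher at 72 h (0.30) and 96 h (0.37), though not called at 72 h on log2(FPKM + 1) (adjusted p = 0.0893). Kdm6b per Kdm6a in FPKM was 0.664 to 0.949 in early and 1.63 to 1.78 in control gastruloids of 96 h, and from CPM per kilobase 1.16 to 1.59 and 2.797 to 2.94, above 1 in both.

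Shares within the Kmt2 family varied little between the groups. Kmt2b, which methylates bivalent promoters, held 50.3% ± 1.53, 49.97% ± 1.49 and 47.00% ± 3.19 of the summed FPKM of the 4 Kmt2 members in early gastruloids of 48, 72 and 96 h, and 48.6% ± 1.97, 47.2% ± 5.51 and 43.8% ± 2.32 in controls. Between the arms 1 Kmt2 difference was called, Kmt2b at 72 h. Its levels were 274, 258 and 261 CPM at 48 h, 223, 218 and 228 CPM at 72 h and 171, 185 and 159.6 CPM at 96 h in early gastruloids, and 273, 257 and 266 CPM at 48 h, 191, 185 and 169 CPM at 72 h and 162, 163 and 164 CPM at 96 h in controls. The arms overlapped at 48 and 96 h and were apart at 72 h, with early above control (0.30 ± 0.052, adjusted p = 0.000159), and Kmt2b was not called at 48 h (-0.0037) or 96 h (0.074). It fell in each step, at -0.25 ± 0.051 (adjusted p = 0.000899) and -0.38 ± 0.052 (adjusted p = 2.6e-05) in early gastruloids and at -0.55 ± 0.052 (adjusted p = 4.77e-08) and -0.15 ± 0.052 (adjusted p = 0.0176) in controls. The first early step was not called on log2(FPKM + 1) (adjusted p = 0.0512), and the last control step lost its call without single libraries.

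Kmt2a, the mixed-lineage leukaemia enzyme, and Kmt2c and Kmt2d, which methylate enhancers, were called in 2 of 21 comparisons. Kmt2a was at 176, 179 and 169 CPM in early and 211, 178 and 119 CPM in control gastruloids of 72 h, and at 222, 235 and 219 CPM in untreated controls. Kmt2c was at 73.2, 77.7 and 72.8 CPM in early and 79.7, 81.5 and 48.1 CPM in control gastruloids of 72 h. Kmt2d was at 201, 213 and 195 CPM in early and 222, 183 and 129.96 CPM in control gastruloids of 72 h, and at 268, 287 and 243 CPM in untreated controls. Control replicate 3 of 72 h was the lowest of its group in all 3 genes, and early replicate 3 of 96 h was likewise the lowest of its own, at 126, 49.0 and 143 CPM. Kmt2a fell over the controls' pulse day (-0.41 ± 0.15, adjusted p = 0.0207), a call lost without control replicate 3 of 72 h (-0.21, adjusted p = 0.118). Kmt2d fell as well (-0.58 ± 0.14, adjusted p = 0.00198), and the change was -0.39 without that library.

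The other changes of these 3 enzymes were not called. For Kmt2a they were -0.22 ± 0.15, 0.045 ± 0.15 and -0.16 ± 0.15 between the arms at 48, 72 and 96 h, -0.14 and -0.15 in the early steps, and 0.054 in the last control step. For Kmt2c they were 0.18 ± 0.16, 0.091 ± 0.16 and 0.0054 ± 0.16 between the arms, -0.36 and -0.21 in the early steps, and -0.27 and -0.12 in the control steps. For Kmt2d they were -0.18 ± 0.14, 0.18 ± 0.14 and -0.11 ± 0.14 between the arms, -0.22 and -0.19 in the early steps, and 0.11 in the last control step. With SE of this size, differences of that order could not be resolved.

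Among the shared COMPASS subunits, Ash2l and Dpy30, which stimulate the methyltransferase as a pair of adaptor proteins, had the largest changes. Dpy30 was at 133, 139 and 136 CPM at 48 h, 113, 115 and 117 CPM at 72 h and 94.8, 96.2 and 110.4 CPM at 96 h in early gastruloids, and at 157, 155 and 148 CPM at 48 h, 75.6, 78.2 and 74.2 CPM at 72 h and 68.5, 65.9 and 67.8 CPM at 96 h in controls. It fell over the controls' pulse day (-1.01 ± 0.051, adjusted p = 7.81e-12) and was higher in early gastruloids at 72 h (0.60 ± 0.051, adjusted p = 3.76e-08) and 96 h (0.57 ± 0.051, adjusted p = 2.34e-08). Ash2l was highest in early gastruloids of 48 h, at 349 to 372 CPM against 240.2 to 253 CPM in untreated controls (0.56 ± 0.04, adjusted p = 2.09e-09). It fell from 48 to 72 h in both arms, at -0.72 in early and -0.68 in control gastruloids. Wdr5, the scaffold that binds the histone tail, was higher in early gastruloids at 96 h (0.33 ± 0.034, adjusted p = 1.97e-07). Rbbp5 was higher in early gastruloids at 48 h (0.17), a call not kept on log2(FPKM + 1). Men1, which encodes menin, a partner of Kmt2a and Kmt2b, was lower in early gastruloids at 48 h (-0.30) and 72 h (-0.26). Over the 9 Kmt2 and COMPASS members, 0 rose and 7 fell in the controls' pulse day, and 0 rose and 5 fell on log2(FPKM + 1). Over all genes 61.4% were called in that step and 30.3% fell, as did 11 of the 12 proliferation genes.

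**Figure D5:**
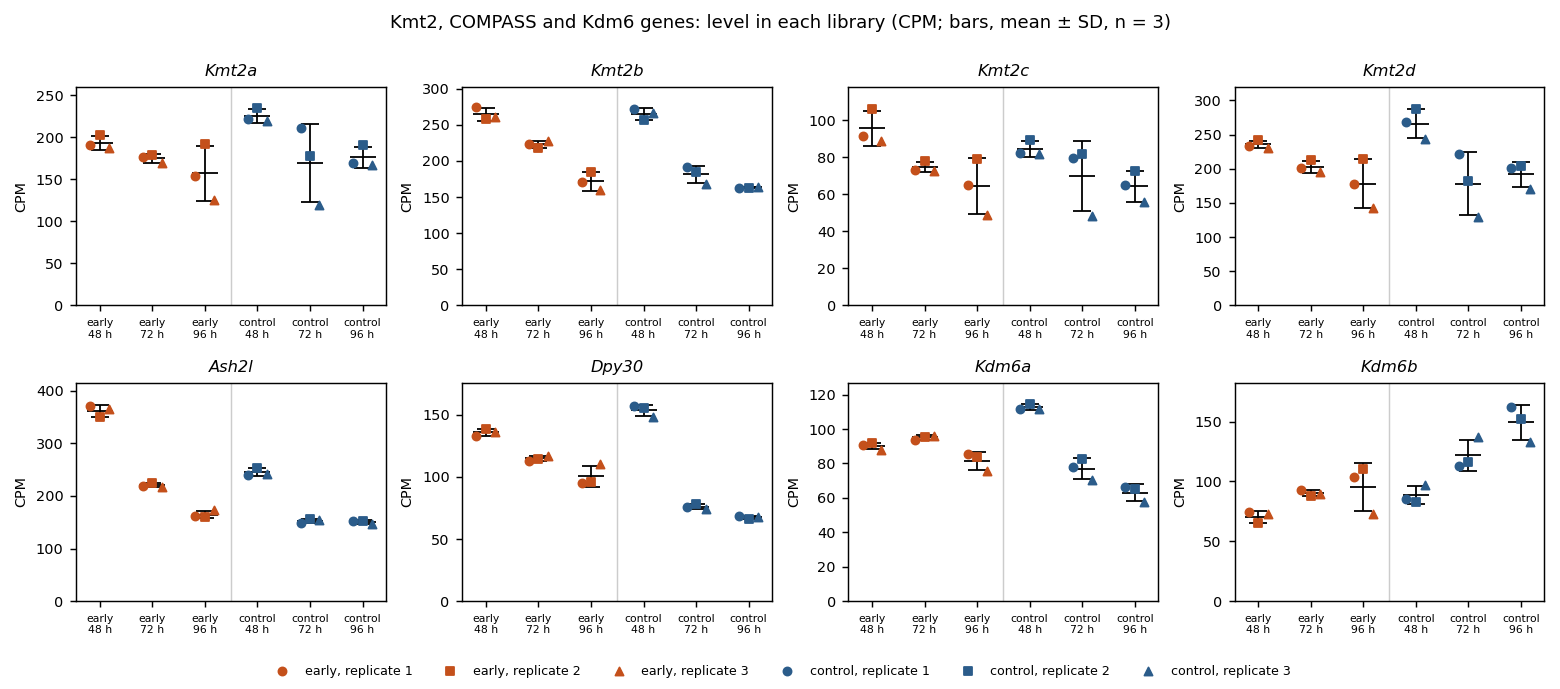
Levels of the 4 Kmt2, 2 COMPASS and 2 Kdm6 genes in every library (CPM, vertical axis from 0; points, libraries; bars, mean ± SD, n = 3), early groups left and control groups right of the grey line. Replicate 3 is the lowest library for Kmt2a, Kmt2c and Kmt2d in early gastruloids of 96 h and in controls of 72 h.

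The day after the pulse can be set side by side in the arms, from 48 to 72 h in early and from 72 to 96 h in control gastruloids, at different ages. The difference between these steps was called for 9 members with a higher and 13 with a lower change in early gastruloids, where 44.5% of all genes were called. Cbx7 changed by -0.19 in the early step and by -1.90 in the control step, and the difference was 1.71 ± 0.10 (adjusted p = 1.79e-10). For Cbx2 the steps were 0.056 and 1.22, and the difference was -1.17 ± 0.082 (adjusted p = 3.82e-09). For Ezh1 the steps were 0.10 and -1.18 (1.27 ± 0.11, adjusted p = 4.48e-08), and for Ezh2 -0.21 and 0.43 (-0.64 ± 0.057, adjusted p = 7.17e-08). Phc1 differed as well (0.80 ± 0.11, adjusted p = 1.86e-05), while Phc2 was not called (-0.44 ± 0.19, adjusted p = 0.0667). Of the 4 Kmt2 genes 0 were called in this comparison by edgeR or DESeq2, with 0 at an unadjusted p under 0.05, and their differences were -0.20, -0.092, -0.24 and -0.32 for Kmt2a, Kmt2b, Kmt2c and Kmt2d.

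Further genes of the same complexes were counted from lists of names. Beside these counts, 43.7%, 44.9% and 59.1% of all tested genes were called between the arms at 48, 72 and 96 h. Higher were 23.0%, 21.7% and 29.5% of all genes, and lower 20.7%, 23.2% and 29.6%. On log2(FPKM + 1) 43.8% of all genes were called at 48 h. Of 15 other PRC1 genes, 8 were higher and 4 lower in early gastruloids at 48 h, 2 and 5 at 72 h, and 5 and 8 at 96 h. Their median log2 fold changes were 0.14, -0.0271 and -0.349. On log2(FPKM + 1), 3 of 14 were higher and 3 lower at 48 h. Sfmbt2, an imprinted MBT-domain gene, was higher at 48 h (2.55 ± 0.17, adjusted p = 1.03e-09) and at 96 h (1.62), and Bcorl1, a variant PRC1 corepressor, was lower at 48 h (-1.53 ± 0.11, adjusted p = 3.68e-09), 72 h (-1.14) and 96 h (-0.98). Scml2, a PRC1-associated MBT-domain gene, was higher at 48 h (1.29) and lower at 72 h (-1.75 ± 0.31, adjusted p = 0.000148) and 96 h (-1.20). Of 6 genes of the PR-DUB deubiquitinase, which removes ubiquitin from H2A, 2 were higher and 0 lower at 48 h, 2 and 2 at 72 h, and 1 and 0 at 96 h, and Asxl3 had the largest change (1.23 ± 0.17 at 48 h, adjusted p = 1.16e-05). Their medians were 0.0749, 0.0125 and 0.0287. On log2(FPKM + 1) the PR-DUB counts at 48 h were 0 higher and 1 lower of 5. Of 2 other PRC2 accessory genes, Lcor was higher at 72 h (0.48) and lower at 96 h (-0.82 ± 0.11, adjusted p = 2.41e-06), and Epop was higher at 48 h (0.62 ± 0.091, adjusted p = 2.19e-05) and lower at 72 h (-0.28) and 96 h (-0.28). Of 9 other COMPASS genes, 3 were higher and 2 lower at 48 h, 1 and 2 at 72 h, and 1 and 5 at 96 h, with medians of -0.0842, -0.0605 and -0.172. At 96 h Setd1b, a methyltransferase of lysine 4, was lower (-0.60 ± 0.073, adjusted p = 1.29e-06), as was Ncoa6, a subunit of the Kmt2c and Kmt2d complexes (-0.58 ± 0.068, adjusted p = 9.1e-07).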

How the data were processed

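RNA-seq count and FPKM tables for 18 libraries of mouse gastruloids were used as the authors deposited them. The submitters' processing notes name cutadapt 4.0, STAR 2.7.8a, Cufflinks 2.2.1 and the build mm10, and give no role or settings for them in the form used here. The counts are whole numbers of reads per gene and were deposited without normalization, and the FPKM values deposited by the authors are scaled to depth and transcript length. How the counter treated strand and multiple mapping is not given in the sources used. The labels name 2 library preparation codes without assigning them to libraries, so a batch could not be modelled.

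From the counts, edgeR 4.0.16 (R 4.3.3) kept 16041 genes with filterByExpr, scaled libraries by TMM and fitted 1 quasi-likelihood model with a coefficient per group to all 18 libraries. P-values were adjusted with Benjamini-Hochberg over those genes, and calls were made at 0.05. The SE is the absolute log2 fold change over the square root of F. CPM uses the scaled library sizes. FPKM was tested as log2(FPKM + 1) with limma 3.58.1, and ratios and shares between paralogs were computed per library from FPKM without a test. Alternatives were DESeq2 1.42.0 as size factors and as test, other filters on low counts, only the groups compared, a replicate block, FPKM with 2 pseudocounts, and fits without single libraries or without the 3 control libraries numbered 3. The fit was tested on simulated data first. Libraries held 14841728 to 24536538 counts.

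The 40 members and all lists were chosen with earlier results of these data known. Full statistics were printed for members called at a log2 fold change of at least 1 in size and for the alternative subunits Ezh1, Ezh2, Cbx2, Cbx7, Pcgf2, Bmi1, Phc1, Phc2 and Kmt2a to Kmt2d; from each other list, up to 4 genes with the largest change among those called were named. The counts of called list genes under other settings were made after the main values had been seen. Of the names in the lists, Ezhip matched no row. Gene spans are from GENCODE M21 on mm10. Promoters are from the RefSeq table of build GRCm38.p6. Exons of 15 members overlap another gene by at least 1 base, mostly on the other strand, among them Mtf2 (Tmed5, 6.93% of its exons) and Rnf2 (Trmt1l, 3.83%), and without a stated strand setting their reads cannot be told apart. Near-identical pseudogene copies found with minimap2 2.31-r1302 held at most 0.695% of the counts of their member.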

Additional observations from a re-analysis of the deposited data

Results flagged for a closer look

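Among the alternative subunits, 10 changed differently on the day after the pulse, from 48 to 72 h in early and from 72 to 96 h in control gastruloids, by edgeR's test of the difference with adjustment over all genes (3 libraries per group). These days differ in age as well as in arm, and both cannot be told apart. The difference, early step minus control step, was positive for Ezh1 (1.27 ± 0.11, adjusted p = 4.48e-08), Cbx7 (1.71 ± 0.10, adjusted p = 1.79e-10), Cbx6 (0.84 ± 0.077, adjusted p = 9.81e-08), Phc1 (0.80 ± 0.11, adjusted p = 1.86e-05) and Pcgf5 (0.70 ± 0.23, adjusted p = 0.021). For Cbx6 the steps were 0.051 in early and -0.79 in control gastruloids, and for Pcgf5 0.69 and -0.0088. The difference was negative for Cbx2 (-1.17 ± 0.082, adjusted p = 3.82e-09), Bmi1 (-0.82 ± 0.16, adjusted p = 0.000438), Ezh2 (-0.64 ± 0.057, adjusted p = 7.17e-08), Phc3 (-0.57 ± 0.12, adjusted p = 0.000896) and Pcgf3 (-0.21 ± 0.063, adjusted p = 0.0113). For Bmi1 the steps were 0.065 and 0.88, for Phc3 -0.52 and 0.049, and for Pcgf3 -0.075 and 0.14. Pcgf1, Pcgf2, Pcgf6, Cbx8, Phc2 and the Kmt2 genes were the alternative subunits not called. Over all genes 44.5% were called in this comparison, and of the 40 members 55%, so a count of this kind is not far from that of all genes.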

How the results depend on the processing

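Of 195 called member comparisons, 139 were called under every alternative, 56 lost their call under at least 1 and 0 reversed, while 42 that were not called passed under some. Counts of called members stayed within 1.5 times the counts given except on log2(FPKM + 1) over all genes, with 16 against 25 at 48 h and 16 against 25 in the early step from 48 to 72 h; the cause was not tested. The uncalled control step of Cbx8 from 48 to 72 h reversed on log2(FPKM + 1) over all genes (0.24, against -0.30). Leaving out single libraries gave 19 to 26 called members at 48 h, 21 to 25 at 72 h, 25 to 28 at 96 h, 22 to 26 and 14 to 19 in the early steps, 27 to 31 and 19 to 25 in the control steps, 20 to 25 in the difference of the day after the pulse and 37 to 40 in any comparison. With the replicate block, 26, 24 and 28 members were called between the arms, 26 and 16 in the early and 32 and 25 in the control steps, 22 in the difference and 39 in any comparison. The numbers were not taken as pairs: same-numbered libraries deviated together with correlations of -0.0135 to 0.158, not all over 0.1 in any comparison, and 3 to 6 of 6 libraries were closest to their own number. Depth limits Cbx8, at no more than 2.40 CPM.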

Other observations

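SWI/SNF chromatin remodelling genes, which oppose Polycomb, were mostly lower in early gastruloids at 96 h: of 13 tested, 1 was higher and 9 lower, with a median log2 fold change of -0.342 beside -0.00574 over all genes, and on log2(FPKM + 1) 1 of 12 was higher and 7 lower. At 48 h 1 was higher and 6 lower, and at 72 h 5 higher and 2 lower. Over all genes 23.0% were higher and 20.7% lower at 48 h, 21.7% and 23.2% at 72 h, and 29.5% and 29.6% at 96 h. Smarcd3, a subunit of heart and muscle complexes, was at 1.45 ± 0.0848 CPM in early and 13.5 ± 5.05 CPM in control gastruloids of 96 h (SD, n = 3), a difference of -3.22 ± 0.33 (adjusted p = 1.42e-07), and it rose by 3.10 in controls from 72 to 96 h. Smarcc2 (-0.79), Smarce1 (-0.77) and Smarca2 (-0.68) were lower as well. In that control step 8 of the 13 rose and 1 fell, where 27.5% of all genes rose and 27.4% fell.

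Of 6 genes for H3K4 demethylases and H2A deubiquitinases, 1 was higher and 2 lower in early gastruloids at 48 h, 2 and 1 at 72 h, and 1 and 2 at 96 h. Kdm5b, a demethylase of lysine 4, was lower at 48 h (-0.31) and higher at 72 h (0.54 ± 0.037, adjusted p = 2.24e-09) and 96 h (0.42 ± 0.037, adjusted p = 2.23e-08). In the controls' pulse day 1 of the 6 rose and 5 fell, where 31.1% of all genes rose and 30.3% fell. Between the arms 43.7%, 44.9% and 59.1% of all genes were called at 48, 72 and 96 h.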
